A study of Mus musculus with 29 samples.

Results

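Ribosome-bound RNA of tagged microglia was compared between 5xFAD mice, which develop amyloid plaques, and mice without the 5xFAD transgenes, both with the plain ribosome tag. The comparison uses 9 of the 29 libraries in the series, 4 labelled 5xFAD TRAP and 5 labelled TRAP, and each library comes from the cortex of 1 mouse aged 6 months. Mice of both groups were labelled Cx3cr1CreErt2/+ and Eef1a1LSL.eGFPL10a/+, that is, a tamoxifen-inducible Cre recombinase in the Cx3cr1 gene and an eGFP-tagged ribosomal protein L10a that is expressed after Cre removes a stop sequence. Both groups received 6 doses of tamoxifen at 100 mg/kg. The 5xFAD TRAP mice also carried the 5xFAD transgenes and were given VEGF (1 µg/kg) and ASV (5 mg/kg) biweekly for 4 weeks from 5 months of age. The TRAP mice carried no 5xFAD transgene and had neither agent, so genotype and agents cannot be told apart in this comparison. Cre activity follows the Cx3cr1 gene, so border macrophages and some blood-derived cells can carry the tag as well as microglia. The labels do not state whether mice of a group shared a litter, and the p-values measure the spread between these animals and libraries.

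As background, 5xFAD mice express transgenes with familial Alzheimer's disease mutations, human APP among them, from Thy1 promoter cassettes in neurons, and plaques form early in the cortex. Microglia gather around plaques through receptors for lipids, lipoproteins and damaged membranes, above all Trem2, and shift towards lipid handling, lysosomal degradation and secretion of growth factors. VEGF acts on the receptor tyrosine kinases Flt1, Kdr and Flt4 with neuropilins as co-receptors, and ASV (asunaprevir) inhibits the NS3 protease, which neither of these groups carries.

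Totals ran from 3.511 to 10.86 M counts in TRAP and from 2.052 to 4.903 M counts in 5xFAD TRAP. The 17 microglial markers in the table, such as Csf1r and Tmem119, made up 6.06% ± 1.15 of the TRAP counts (SD, n = 5) and 5.47% ± 0.907 of the 5xFAD TRAP counts (SD, n = 4). Both groups carried markers of the labelled cell type. Neuron markers made up 0.112% to 0.138% of counts in TRAP. Their share in 5xFAD TRAP was 0.431% in replicate 1, 0.252% in replicate 2, 0.107% in replicate 3 and 0.115% in replicate 4. Border macrophage markers took 0.0181% to 0.0589% in TRAP and 0.0220% to 0.0252% in 5xFAD TRAP. An exact two-sided permutation test of the shares of counts called none of 10 marker lists (lowest adjusted p = 0.2646). The smallest p that 5 against 4 libraries can give is 0.007937, so 1 list alone could not pass 0.05 after adjustment over 10. By the same test, unadjusted p was 0.05556 for astrocyte, 0.06349 for mural cell and 0.07937 for border macrophage markers. The shares were not shown to be alike. TRAP replicate 2 stood apart in Cx3cr1, the gene that drives the Cre, with 720, 16.97, 662, 616 and 710.2 CPM in TRAP replicates 1 to 5 and 566 to 808 CPM in 5xFAD TRAP. Its label gives the same heterozygous Cx3cr1 genotype as the others, which was not checked in another way. Batch 1 held TRAP replicates 1 to 4 and 5xFAD TRAP replicates 1 and 2, and batch 2 held TRAP replicate 5 and 5xFAD TRAP replicates 3 and 4. CPM values here are TMM-scaled to library size. All fold changes are log2 values, 5xFAD TRAP minus TRAP, with their standard error (SE).

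The genes of the transgenes were read first, because they check the labels. Thy1, whose promoter drives the 5xFAD transgenes, was at 7.01, 6.19, 8.74, 8.12 and 12.1 CPM in TRAP replicates 1 to 5 and at 45.4, 37.8, 29.8 and 25.5 CPM in 5xFAD TRAP replicates 1 to 4. Every 5xFAD TRAP library lay above every TRAP library. The log2 fold change was 2.24 ± 0.52 SE (adjusted p = 0.02934, edgeR's quasi-likelihood test with Benjamini-Hochberg adjustment over 16074 genes, as for every adjusted p below unless another test is named). For Thy1, the call was lost in 7 of the 9 fits that left out 1 library (highest adjusted p = 0.135, without TRAP replicate 1) and held without TRAP replicate 5 and 5xFAD TRAP replicate 4. App was at 138, 172, 255, 121 and 241 CPM in TRAP and 374, 465, 268 and 213 CPM in 5xFAD TRAP, where the groups overlapped and the fold change of 1.15 ± 0.50 SE was not called (adjusted p = 0.4199). Reads of a human transgene and of its mouse gene cannot be told apart in these counts. Thy1 is also a neuronal gene. The highest Thy1 values, and the highest App values, fell in 5xFAD TRAP replicates 1 and 2, which had the highest neuron marker shares. Thy1 values in replicates 3 and 4, whose neuron share was within the TRAP range or below it, were above all TRAP libraries. The part of neuronal RNA in the Thy1 and App values was not tested.

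Of 16074 genes tested, 114 were called higher in 5xFAD TRAP (0.709%) and 13 lower (0.0809%) at an adjusted p of 0.05. The 4 libraries of 5xFAD TRAP lay above all 5 of TRAP for 547 genes (3.40%) and below all 5 for 313 genes (1.95%). Of the called genes, 101 of the 114 higher and 12 of the 13 lower showed no overlap. All 127 kept their direction within batch 1 and within batch 2, although batch 2 has a single TRAP library. The 127 were selected with these same libraries, so their shared direction is a description and not independent support. The number called fell to 82 without TRAP replicate 1, to 70 without 5xFAD TRAP replicate 1 and to 53 without 5xFAD TRAP replicate 2, and it was 101 without TRAP replicate 2, the library with little Cx3cr1. A fit to the 9 libraries alone, in which the spread of the other 20 does not enter, called 472 of 12248 genes higher (3.85%) and 277 lower (2.26%), among them 106 of the 112 genes called higher and 8 of the 11 called lower that it tested. The share of higher calls was 89.76% with all 29 libraries, 63.02% with these 9, 84.72% with these 9 and no terms for batch and sex, and 62.9% by DESeq2 on all 29. The plot of fold change against level shows the called genes among all genes tested.

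**Figure D1:**
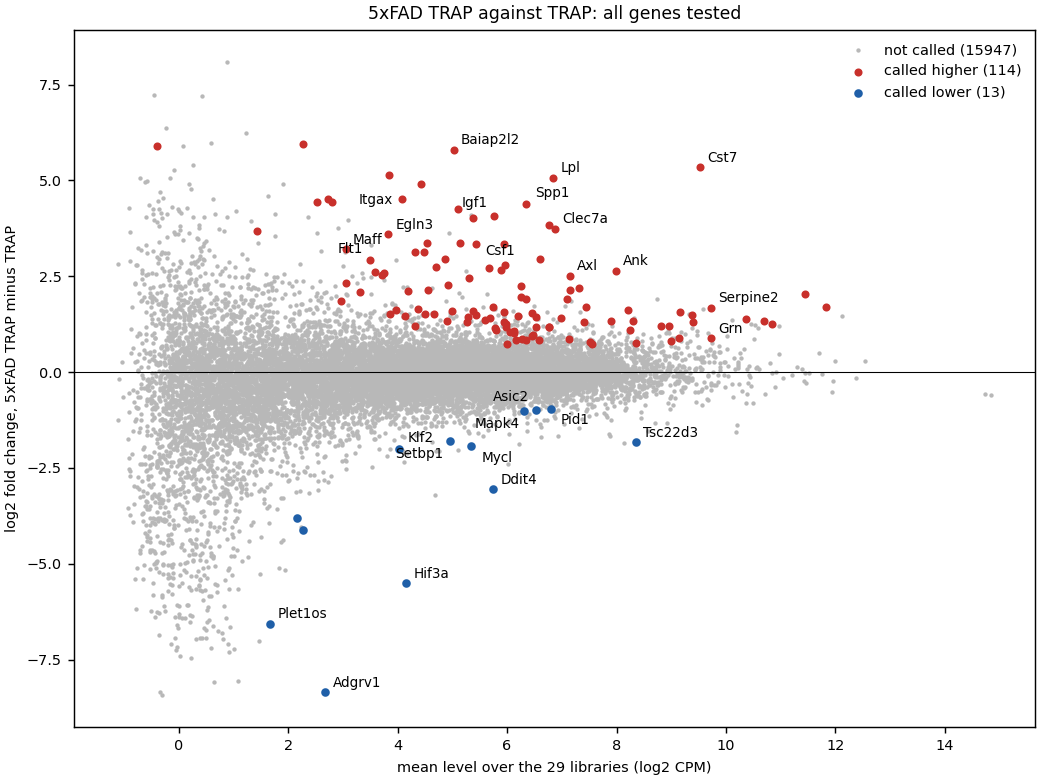
Log2 fold change of 5xFAD TRAP minus TRAP against the mean level over all 29 libraries in log2 CPM, 1 point per gene, red for the 114 called higher, blue for the 13 called lower and grey for the rest. Labelled genes include Hif3a and Ddit4 well below 0 and Cst7, Lpl and Spp1 well above it.

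Among secreted signals, 4 of 30 tested genes were called higher and none lower: Igf1, Csf1, Spp1 and Grn. Over all genes tested 0.709% were called higher. The median log2 fold change of the 30 was -0.15, against -0.06 over all genes tested, and 12 of the 30 had a positive value. Igf1, insulin-like growth factor 1, was at 16.4, 1.397, 9.37, 6.5 and 13.3 CPM in TRAP replicates 1 to 5 and 152, 196, 156 and 91.3 CPM in 5xFAD TRAP replicates 1 to 4. The lowest 5xFAD library was more than any TRAP library, and the log2 fold change was 4.07 ± 0.57 SE (adjusted p = 0.0001309). TRAP replicate 2 had the lowest value. For Igf1, the call held with any 1 of the 9 libraries left out (highest adjusted p = 0.001069). In the insulin and insulin-like growth factor pathway Igf1 was the 1 gene called of 27 tested, and the median was -0.03. Irs1, an adaptor of the insulin receptor, was next by p at 0.729 to 5.55 CPM in TRAP and 0 to 2.102 CPM in 5xFAD TRAP (-2.29 ± 0.81 SE, adjusted p = 0.2682).

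Csf1, a ligand of the receptor Csf1r on which microglia depend, was at 12.8, 1.996, 14.6, 14.9 and 11.2 CPM in TRAP and 111, 156, 85.5 and 66.6 CPM in 5xFAD TRAP. Its log2 fold change was 3.34 ± 0.48 SE (adjusted p = 0.0001509). For Csf1, the call held with any 1 of the 9 libraries left out (highest adjusted p = 0.001919). The receptor Csf1r was at 2030.0 to 2392 CPM in TRAP and 2057 to 2587 CPM in 5xFAD TRAP, with overlap (0.09 ± 0.25 SE, adjusted p = 0.9496). Spp1, osteopontin, a secreted ligand of integrins and Cd44, was at 8.33 to 11.9 CPM in TRAP and 138 to 265 CPM in 5xFAD TRAP and rose by 4.38 ± 0.58 SE (adjusted p = 6.946e-05). Grn, progranulin, a secreted protein that also acts in lysosomes, was at 700.4, 894, 1166, 802 and 1023 CPM in TRAP and 1515, 1975, 1514 and 1650.0 CPM in 5xFAD TRAP. The groups did not overlap and the rise was small (0.88 ± 0.21 SE, adjusted p = 0.03938). For Grn, the call was lost in 7 of the 9 fits that left out 1 library (highest adjusted p = 0.31, without 5xFAD TRAP replicate 2) and held without TRAP replicate 3 and 5xFAD TRAP replicate 3.

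The receptors for VEGF bear on the agent the 5xFAD mice had received. Flt1 and Nrp1 were called higher, 2 of the 5 receptors and co-receptors (0.709% of all genes). Flt1 (VEGF receptor 1, chr5:147561604-147726011 in mm10, minus strand) was at 2.92, 0.399, 0.312, 0.929 and 0.962 CPM in TRAP and 12.01, 6.03, 5.96 and 10.3 CPM in 5xFAD TRAP. All 4 libraries lay above the 5, at low levels, and the log2 fold change was 2.91 ± 0.65 SE (adjusted p = 0.02223). For Flt1, the call was lost in 6 of the 9 fits that left out 1 library (highest adjusted p = 0.1535, without 5xFAD TRAP replicate 1) and held without TRAP replicate 1 and 5xFAD TRAP replicates 3 and 4. Nrp1, neuropilin 1, a co-receptor for VEGF and for class 3 semaphorins, was at 84.7, 78.5, 101, 79.5 and 75.96 CPM in TRAP and 169.9, 205, 153 and 114 CPM in 5xFAD TRAP. Nrp1 rose by 0.95 ± 0.23 SE (adjusted p = 0.03928). For Nrp1, the call was lost in 7 of the 9 fits that left out 1 library (highest adjusted p = 0.2824, without 5xFAD TRAP replicate 2) and held without TRAP replicate 3 and 5xFAD TRAP replicate 4. Nrp2 was at 5.77 to 16.6 CPM in TRAP and 10.5 to 41.1 CPM in 5xFAD TRAP, with overlap (1.13 ± 0.50 SE, adjusted p = 0.4228).

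Kdr, VEGF receptor 2 and the main VEGF receptor of endothelium, was low in both groups, at 0.312 to 3.65 CPM in TRAP and 0.667 to 2.102 CPM in 5xFAD TRAP, with a fold change of -1.23 ± 1.05 SE (adjusted p = 0.7423). Flt4, VEGF receptor 3, had 0 counts in all TRAP libraries and 1 count in 5xFAD TRAP replicate 3. Flt1 is also a marker of endothelial cells. The 11 endothelial markers together took 0.00247% to 0.00417% of counts in TRAP and 0.00271% to 0.00553% in 5xFAD TRAP, none other than Flt1 was called, and Cldn5, a defining endothelial gene, averaged 0.369 ± 0.411 CPM (SD, n = 5) in TRAP and 0.972 ± 1.39 CPM (n = 4) in 5xFAD TRAP. The part of endothelial RNA in the Flt1 change was not tested.

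**Figure D2:**
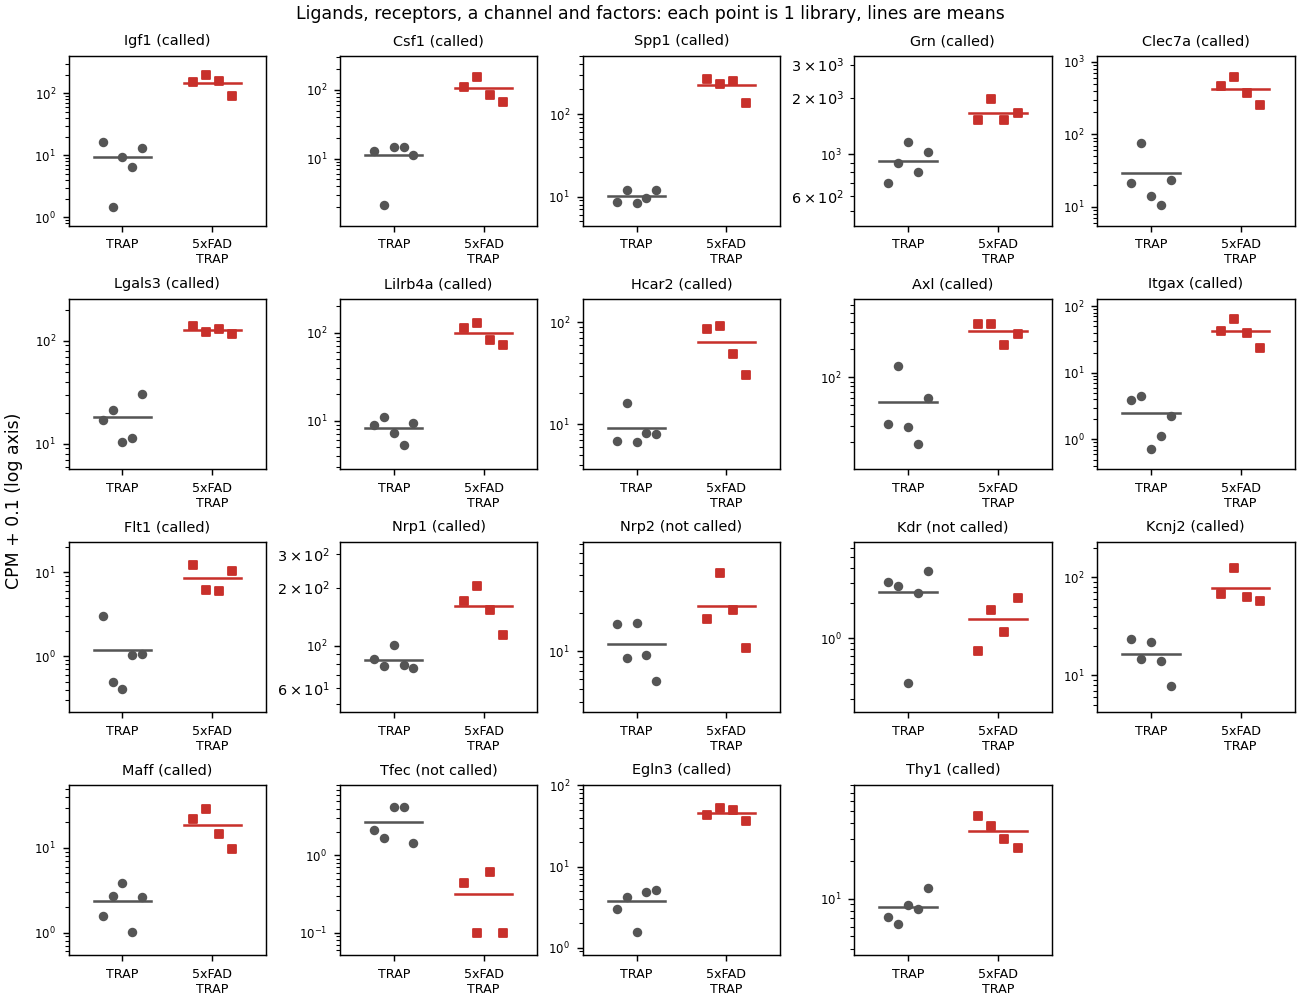
CPM plus 0.1 on a log axis for 19 genes that encode ligands, receptors, a channel, transcription factors and related proteins; circles are the 5 TRAP libraries, squares the 4 5xFAD TRAP libraries, and lines their means. The squares lie above all circles for Igf1, Csf1, Spp1, Clec7a, Flt1, Nrp1, Maff and Egln3, while Nrp2 overlaps and Tfec runs the other way.

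Pattern-recognition receptors were read by family. Of 13 C-type lectin and galectin genes tested 3 were called higher (Clec7a, Lgals3 and Lgals3bp; 0.709% of all genes), and the median of the 13 was -0.35, below that of all genes. Clec7a, the beta-glucan receptor Dectin-1, was at 21.3, 75.95, 14.1, 10.7 and 23.5 CPM in TRAP and 464, 609, 366 and 255 CPM in 5xFAD TRAP. TRAP replicate 2 had 3 times or more the value of the other TRAP libraries and was still below every 5xFAD TRAP library. Its log2 fold change was 3.73 ± 0.68 SE (adjusted p = 0.00374). For Clec7a, the call held with any 1 of the 9 libraries left out (highest adjusted p = 0.03409). Lgals3, galectin-3, rose from 10.3 to 30.2 CPM to 115 to 139 CPM (2.71 ± 0.54 SE, adjusted p = 0.008248). For Lgals3, the call was lost without 5xFAD TRAP replicate 1 (adjusted p = 0.05744). Lgals3bp, a secreted galectin-3 binding protein, rose from 48.6 to 129.6 CPM to 222 to 425 CPM (1.91 ± 0.31 SE, adjusted p = 0.0008257). For Lgals3bp, the call held with any 1 of the 9 libraries left out (highest adjusted p = 0.01004) and was lost in the fit to the 9 libraries alone (adjusted p = 0.06376).

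Of 20 Fc and paired immunoglobulin-like receptors 1 was called higher (0.709% of all genes), Lilrb4a, an inhibitory receptor that signals through phosphatases. Its values were 8.76, 10.8, 7.08, 5.22 and 9.42 CPM in TRAP and 112, 128, 82.6 and 71.5 CPM in 5xFAD TRAP, a log2 fold change of 3.37 ± 0.61 SE (adjusted p = 0.003006). For Lilrb4a, the call held with any 1 of the 9 libraries left out (highest adjusted p = 0.02634). The list had 9 of 20 members without overlap on the high side, against 3.40% of all genes, among them Cd200r4 at 1.198 to 2.63 and 8.41 to 33.97 CPM (3.75 ± 1.04 SE, adjusted p = 0.1025), which missed the threshold. None of 7 Siglec receptors was called. Siglecf had 12.3 to 30.9 CPM in TRAP and 42.5 to 63.01 CPM in 5xFAD TRAP without overlap (1.54 ± 0.57 SE, adjusted p = 0.2977), and Siglecg had 1.697 to 4.38 and 0 to 1.64 CPM (-2.10 ± 1.05 SE, adjusted p = 0.5096).

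Scavenger and lipoprotein receptors had a median of 0.68 over 18 tested genes, and 6 of the 18 had no overlap on the high side (3.40% of all genes). Scarb1, a receptor for high-density lipoprotein, was one of these at 19.97 to 26.1 and 39.5 to 70.7 CPM, with a fold change of 0.96 ± 0.30 SE that was not called (adjusted p = 0.1727).

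Hcar2 was the 1 gene called of 37 G protein-coupled receptors tested, where 0.709% of all genes were called higher. It is a Gi-coupled receptor for niacin and the ketone body beta-hydroxybutyrate. It was at 6.71, 15.97, 6.56, 8.01 and 7.88 CPM in TRAP and 86.1, 92.05, 48.7 and 30.4 CPM in 5xFAD TRAP (2.94 ± 0.69 SE, adjusted p = 0.03138). The groups did not overlap. For Hcar2, the call was lost in 7 of the 9 fits that left out 1 library (highest adjusted p = 0.1453, without 5xFAD TRAP replicate 2) and held without TRAP replicate 2 and 5xFAD TRAP replicate 4. DESeq2 did not call it (adjusted p = 0.1387). Ptger4, the prostaglandin E2 receptor EP4, had 4.58 to 15.2 CPM in TRAP and 16.6 to 31.8 CPM in 5xFAD TRAP (1.24 ± 0.31 SE, adjusted p = 0.05274), just outside the threshold. P2ry12, P2ry13 and Gpr34 were not analysed here. Gnas, the Gs alpha subunit that stimulates adenylyl cyclase, rose from 30.9, 20.1, 24.5, 22.98 and 34.4 CPM to 71.1, 62.5, 73.05 and 68.4 CPM. Its values in 5xFAD TRAP were close together, and the log2 fold change was 1.43 ± 0.20 SE (adjusted p = 0.0001509). For Gnas, the call held with any 1 of the 9 libraries left out (highest adjusted p = 0.001228).

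Of 43 cytokine and growth factor receptors Axl alone was called higher (0.709% of all genes). It is a receptor tyrosine kinase that binds Gas6 on dying cells. Axl was at 31.2, 132, 29.2, 18.9 and 59.6 CPM in TRAP and 376, 373, 224 and 297 CPM in 5xFAD TRAP, a log2 fold change of 2.51 ± 0.45 SE (adjusted p = 0.002711). For Axl, the call held with any 1 of the 9 libraries left out (highest adjusted p = 0.02255) and was lost in the fit to the 9 libraries alone (adjusted p = 0.1157). TRAP replicate 2 again had the highest TRAP value. Its ligand Gas6 was at 157 ± 31.8 CPM (SD, n = 5) and 152 ± 21.2 CPM (n = 4). Il6st, the shared signalling subunit gp130, was next at 39.6 to 78.1 and 59.1 to 136 CPM (0.98 ± 0.28 SE, adjusted p = 0.1211). Integrins and tetraspanins had 3 of 27 called higher (0.709% of all genes). Itgax, the integrin subunit CD11c, rose from 0.624 to 4.39 CPM to 23.4 to 63.6 CPM (4.51 ± 0.69 SE, adjusted p = 0.0003422). For Itgax, the call held with any 1 of the 9 libraries left out (highest adjusted p = 0.002765). The tetraspanin Cd9 rose from 849 to 1459 to 2644 to 3756 CPM (1.38 ± 0.32 SE, adjusted p = 0.03214). For Cd9, the call was lost in 7 of the 9 fits that left out 1 library (highest adjusted p = 0.3067, without 5xFAD TRAP replicate 2) and held without 5xFAD TRAP replicates 3 and 4. The tetraspanin Cd63, found on late endosomes and secreted vesicles, rose from 280 to 610 to 1024 to 1561 CPM (1.56 ± 0.38 SE, adjusted p = 0.043). For Cd63, the call was lost in 8 of the 9 fits that left out 1 library (highest adjusted p = 0.2786, without 5xFAD TRAP replicate 2) and held without 5xFAD TRAP replicate 4.

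Kcnj2 was the 1 gene called of 27 ion channels, where 0.709% of all genes were called higher. It encodes the inward rectifier potassium channel Kir2.1, which helps to set the resting potential. It was at 23.1, 14.5, 21.96, 13.9 and 7.69 CPM in TRAP and 66.4, 123, 62.2 and 56.8 CPM in 5xFAD TRAP. The groups were well apart, with 5xFAD TRAP replicate 2 highest, and the log2 fold change was 2.44 ± 0.34 SE (adjusted p = 0.0001309). For Kcnj2, the call held with any 1 of the 9 libraries left out (highest adjusted p = 0.002765). Clic4, an intracellular chloride channel protein, had 22.6 to 67.6 and 63.5 to 109.6 CPM with overlap (1.24 ± 0.32 SE, adjusted p = 0.06726).

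Extracellular proteases, their inhibitors and matrix genes had 3 of 29 called higher (0.709% of all genes) and a median of 0.53. The members called were inhibitors and a receptor of proteases, not proteases. Cst7, cystatin F, an inhibitor of cysteine cathepsins, rose from 27.4 to 83.3 CPM to 1534 to 2410.0 CPM (5.34 ± 0.55 SE, adjusted p = 1.073e-06). Serpine2, protease nexin-1, an inhibitor of thrombin and urokinase, rose from 443 to 730.2 CPM to 1352 to 2237 CPM (1.68 ± 0.24 SE, adjusted p = 0.0001747). For Serpine2, the call held with any 1 of the 9 libraries left out (highest adjusted p = 0.003102). Plaur, the urokinase receptor, was at 7.01, 21.2, 9.26, 9.17 and 28.5 CPM in TRAP and 88.4, 95.3, 67.3 and 65.6 CPM in 5xFAD TRAP (2.28 ± 0.49 SE, adjusted p = 0.01422). For Plaur, the call was lost without each of TRAP replicates 1 and 4 and 5xFAD TRAP replicates 1 and 2 (highest adjusted p = 0.1227, without 5xFAD TRAP replicate 2). Of 31 actin and small GTPase genes Capg, which caps actin filaments, was called (49.9 to 136 and 303 to 482 CPM, 2.19 ± 0.52 SE, adjusted p = 0.03582). For Capg, the call was lost in 6 of the 9 fits that left out 1 library (highest adjusted p = 0.2199, without 5xFAD TRAP replicate 2) and held without TRAP replicate 2 and 5xFAD TRAP replicates 3 and 4. Outside that list, the long-tailed class I myosin Myo1e rose from 15.1 to 35.9 to 57.9 to 184 CPM (2.66 ± 0.33 SE, adjusted p = 2.53e-05), and Baiap2l2, which binds curved membranes, from 0.348 to 4.59 to 68.2 to 110.1 CPM (5.80 ± 0.64 SE, adjusted p = 3.022e-06).

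Hypoxia-inducible genes had 2 of 24 called higher (0.709% of all genes), none lower and a median of 0.27. Egln3, a prolyl hydroxylase that marks HIF alpha subunits for degradation and is itself induced by HIF, was at 2.92, 4.09, 1.46, 4.76 and 5 CPM in TRAP and 43.4, 52.6, 50.2 and 36.2 CPM in 5xFAD TRAP. The groups were about an order of magnitude apart, and the log2 fold change was 3.60 ± 0.61 SE (adjusted p = 0.001256). For Egln3, the call held with any 1 of the 9 libraries left out (highest adjusted p = 0.00783). Ldha, lactate dehydrogenase A, rose from 284, 337, 409, 332 and 273 CPM to 675, 705, 509 and 496 CPM (1.19 ± 0.26 SE, adjusted p = 0.01709). For Ldha, the call was lost without each of TRAP replicate 1 and 5xFAD TRAP replicates 2 and 4 (highest adjusted p = 0.14, without TRAP replicate 1). Vegfa, a hypoxia-inducible gene and the ligand of Flt1 and Kdr, was lower in value and not called (24.98 ± 8.33 CPM, SD, n = 5, and 13.7 ± 6.03 CPM, n = 4; -1.15 ± 0.37 SE, adjusted p = 0.2044). Among metabolic genes outside the lists, Psat1, an enzyme of serine synthesis, rose from 55.7 to 102 to 147 to 402 CPM (2.13 ± 0.30 SE, adjusted p = 0.0001319). Ank, a membrane protein that exports ATP, pyrophosphate and citrate, rose from 63.1 to 128 to 290.5 to 771 CPM (2.64 ± 0.26 SE, adjusted p = 5.102e-07), and Fam20c, a kinase of secreted proteins whose substrates include osteopontin, from 11.6 to 20 to 49.3 to 173 CPM (2.79 ± 0.31 SE, adjusted p = 3.022e-06). These 3 calls held with any 1 of the 9 libraries left out.

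Of 137 transcription factors tested in 8 lists, 1 was called higher and 1 lower, where 0.709% and 0.0809% of all genes were. Maff, a small Maf protein that lacks a transactivation domain of its own, was at 1.46, 2.595, 3.75, 0.929 and 2.5 CPM in TRAP and 22.03, 29.04, 14.5 and 9.58 CPM in 5xFAD TRAP. The groups did not overlap, and the log2 fold change was 3.20 ± 0.65 SE (adjusted p = 0.009661). For Maff, the call was lost without 5xFAD TRAP replicate 2 (adjusted p = 0.07295). It was the 1 call among 19 AP-1 and related factors, whose median was -0.27, and Jdp2, which represses AP-1 sites, had 65.7, 90.8, 84.4, 95.7 and 86.2 CPM in TRAP and 29.7, 22.5, 24.4 and 71.9 CPM in 5xFAD TRAP. Without 5xFAD TRAP replicate 4 the Jdp2 groups do not overlap. With all libraries the fold change of -1.44 ± 0.37 SE was not called (adjusted p = 0.05913). Klf2, the other factor called, fell and is described with the falling genes.

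No gene was called among 4 MiT/TFE factors, 20 E-box repressors and circadian factors, 25 nuclear receptors, 16 RUNX, ETS and MEF2 factors, 19 IRF, STAT and NF-kB factors or 18 microglial lineage factors. The MiT/TFE family drives lysosomal genes, and of its members Mitf had 10.2 to 34.5 and 17.1 to 37.3 CPM (0.55 ± 0.41 SE, adjusted p = 0.6847). Tfec, a family member largely restricted to myeloid cells, had 2.04, 1.597, 4.06, 4.06 and 1.35 CPM in TRAP and 0.334, 0, 0.518 and 0 CPM in 5xFAD TRAP, from 104 and 3 counts in all. The Tfec groups did not overlap, and the ratio of TRAP to 5xFAD TRAP was 12.2 with a 95% counting interval of 4.06 to 60.1, but the fold change of -3.63 ± 1.30 SE was not called (adjusted p = 0.2744). Bhlhe40, a repressor that binds E-boxes, had 23.9, 23.4, 13.7, 28.8 and 51.2 and 116, 105, 58.8 and 42.5 CPM (1.45 ± 0.39 SE, adjusted p = 0.07831); within batch 1 the log2 value was 2.18 and within batch 2 it was -0.10. Ets2, next among the ETS factors, had 19.6 to 37.7 and 36.4 to 58.1 CPM with overlap (1.03 ± 0.29 SE, adjusted p = 0.116). Cebpb and Cebpd, first among the lineage factors, were lower in value (-0.86 ± 0.31 SE and -0.86 ± 0.32 SE) and not called (adjusted p = 0.2807 and 0.3095).

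MiT/TFE factors bind E-boxes with the core CACGTG, as do MYC and USF proteins, so this palindrome was looked for in the 250 bases before the RefSeq start of each gene (GRCm38.p6). An entry was found for 11501 of the genes tested, for 91 of the 114 called higher and for 9 of the 13 called lower. CACGTG was in 17 of the 91 (18.7%), in 9.41% of all 11501 and in none of the 9. The 17 included 6 genes of lysosomal enzymes, Ctsa, Ctsd, Ctsl, Gla, Glb1 and Naglu, each called higher, and the windows around their matches are shown because they carry this shared element. Capital letters mark CACGTG, and each stretch reads 5′ to 3′ on the gene's strand and ends at the RefSeq start or 30 bases past the match. RefSeq starts differ from GENCODE M21 positions for some genes. The Ctsa, Ctsl and second Ctsd stretches lie inside the GENCODE span, and the Naglu and first Ctsd stretches overlap its edge. Ctsa has 2 RefSeq starts, and the match shown belongs to 1 of them.
Ctsa, chr2:164833731-164833772, plus strand: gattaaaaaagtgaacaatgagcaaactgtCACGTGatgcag
Ctsd (first match), chr7:142388037-142388077, minus strand: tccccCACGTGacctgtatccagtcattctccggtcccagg
Ctsd (second match), chr7:142387890-142387955, minus strand: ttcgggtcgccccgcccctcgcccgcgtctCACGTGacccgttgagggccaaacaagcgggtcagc
Ctsl, chr13:64370721-64370770, minus strand: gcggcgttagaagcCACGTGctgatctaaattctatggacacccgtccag
Gla (first match), chrX:134601197-134601255, minus strand: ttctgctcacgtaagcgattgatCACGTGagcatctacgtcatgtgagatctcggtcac
Gla (second match), chrX:134601164-134601229, minus strand: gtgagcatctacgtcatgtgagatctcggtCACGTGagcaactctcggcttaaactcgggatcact
Glb1, chr9:114401000-114401065, plus strand: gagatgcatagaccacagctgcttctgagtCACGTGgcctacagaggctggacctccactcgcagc
Naglu, chr11:101069991-101070056, plus strand: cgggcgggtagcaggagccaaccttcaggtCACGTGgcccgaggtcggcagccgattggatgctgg
A match in the letters is a description and not evidence of binding. Both strands were searched for each motif, and 3 others printed here are TGANTCA, an AP-1 site (9 of the 91 higher genes, 9.89%, against 5.68% of all), TGACGTCA, a cAMP response element (5 of 91, 5.49%, against 2.88%), and ACANNNTGT, the core of a steroid receptor element (4 of 91, 4.40%, against 4.69%, and none of the 9 lower genes). In all 22 motifs were searched after the calls were known, several of them variants of these, and for 16 of the 22 the share among the 91 was above that of all genes. Among those not yet given, TCATGTG was in 8 of the 91 (8.79%, against 2.32% of all), and TGANNNNGTCA was in none of the 91 (against 2.55%). Windows of several genes hold more than 1 of the motifs, Glb1 and Ldha among them.

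These 6 genes were taken from among those called higher, so their rise is a description, and none of them had overlap between the groups. Lysosomal genes called higher that are not among the 17 with CACGTG included Ctsb (1.69 ± 0.24 SE), Gusb (1.33 ± 0.30 SE), Lamp2 (1.09 ± 0.22 SE), Tpp1 (0.79 ± 0.17 SE) and Ppt1 (0.76 ± 0.16 SE), read after their values were seen, and Ctsb had no entry in the promoter table. Ctsd, the aspartic protease cathepsin D, was at 1220.0, 1861, 1821, 1438 and 1884 CPM in TRAP and 3911, 4727, 3841 and 3474 CPM in 5xFAD TRAP (1.26 ± 0.29 SE, adjusted p = 0.02527). For Ctsd, the call was lost in 5 of the 9 fits that left out 1 library (highest adjusted p = 0.2159, without 5xFAD TRAP replicate 2). Gla, alpha-galactosidase A on the X chromosome, was the least abundant and had the largest fold change of the 6, at 3.21, 4.89, 3.23, 2.55 and 5.77 CPM in TRAP and 26.7, 30.1, 19.9 and 12.4 CPM in 5xFAD TRAP (2.61 ± 0.52 SE, adjusted p = 0.007485). For Gla, the call held with any 1 of the 9 libraries left out (highest adjusted p = 0.04657). For the serine carboxypeptidase Ctsa the change was 1.29 ± 0.20 SE, for the cysteine protease Ctsl 1.49 ± 0.23 SE, for the beta-galactosidase gene Glb1 1.48 ± 0.31 SE, and for Naglu, which degrades heparan sulfate, 1.45 ± 0.30 SE. Calls of Ctsa and Ctsl held with any 1 library left out, and those of Glb1 and Naglu were lost in 2 of the 9 such fits each (highest adjusted p = 0.09098 and 0.09029, both without 5xFAD TRAP replicate 2).

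The remaining pathway lists had 1 call or none. Of 28 MAP kinase and cytokine brakes 1 was called higher (0.709% of all genes). It was Dusp3, a dual-specificity phosphatase (44.96 to 63.3 and 64.9 to 120.1 CPM, 0.83 ± 0.20 SE, adjusted p = 0.03967). For Dusp3, the call was lost in 7 of the 9 fits that left out 1 library (highest adjusted p = 0.2617, without 5xFAD TRAP replicate 1) and held without TRAP replicate 5 and 5xFAD TRAP replicate 4. Dusp1, the next by p, was lower in value (-0.92 ± 0.30 SE, adjusted p = 0.2114). Axon guidance genes had Nrp1 as the 1 call of 26. No gene was called among 20 of eicosanoid synthesis, 16 of polyamine and arginine metabolism, 14 of the pentose phosphate and glycogen pathways, 18 of iron transport and haem or 24 of the cell cycle. In the cell cycle list Pcna, the replication clamp, had 46.5 to 62.1 and 65.3 to 79.99 CPM (0.68 ± 0.20 SE, adjusted p = 0.148), and Ccnd2, cyclin D2, 19.98 to 49.2 and 10.4 to 25.9 CPM (-1.09 ± 0.30 SE, adjusted p = 0.09888). Alox5ap, the protein that presents arachidonic acid to 5-lipoxygenase, had 122 to 186 and 59.1 to 144 CPM (-1.18 ± 0.39 SE, adjusted p = 0.2101), and Slc40a1, the iron exporter ferroportin, 141 to 213 and 84.1 to 136 CPM without overlap (-1.15 ± 0.45 SE, adjusted p = 0.3452). Ass1, argininosuccinate synthase, was at 1.297 to 1.74 and 3.83 to 4.92 CPM (2.08 ± 0.60 SE, adjusted p = 0.1299).

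**Figure D3:**
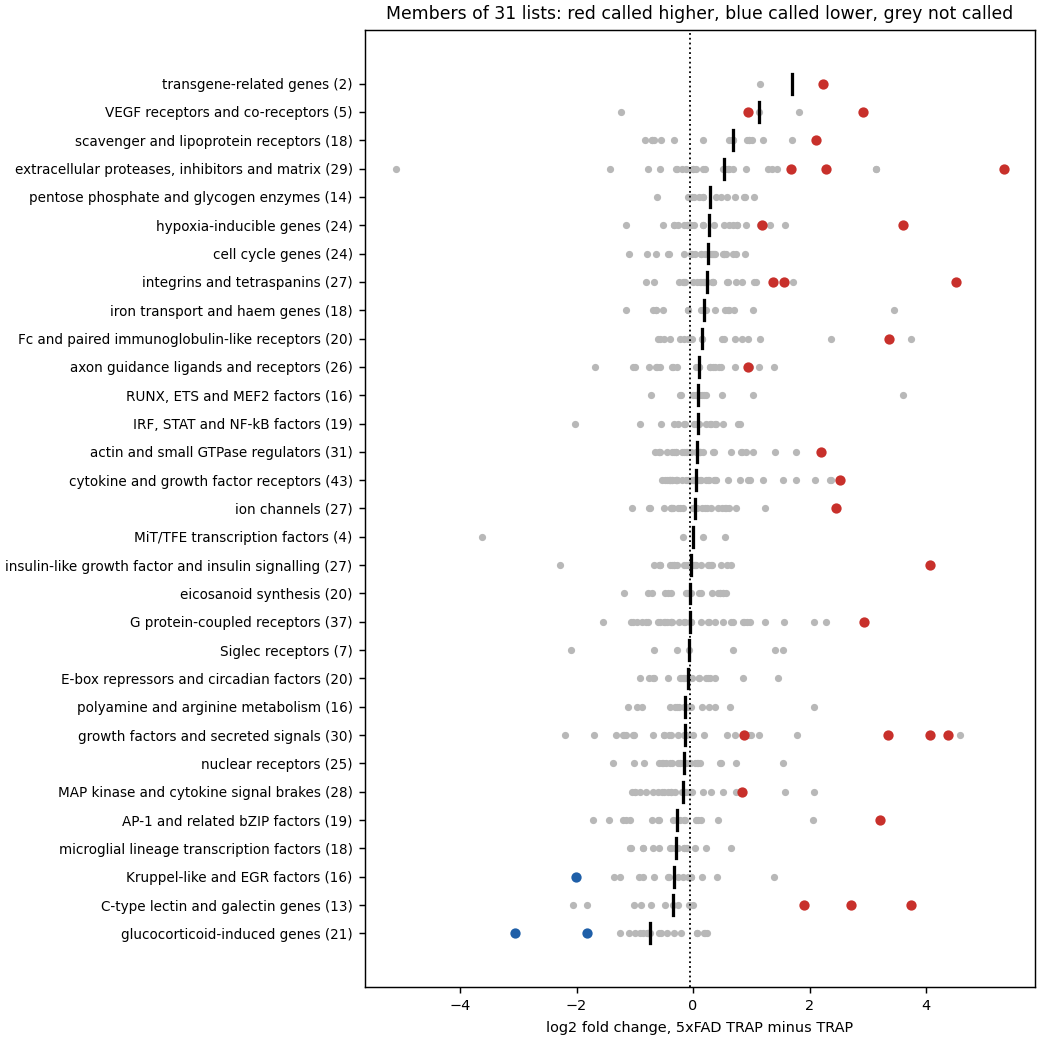
Log2 fold change of every tested member of 31 lists (number tested in brackets), ordered by median; red points were called higher, blue points lower and grey points not called, black bars are list medians and the dotted line is the median of all genes. Of the 31 lists 17 hold 1 to 4 red points, and the glucocorticoid-induced list has the lowest median at -0.74.

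Genes called lower were few in this fit, while the fit to the 9 libraries alone called 277 lower and DESeq2 128. Hif3a, Ddit4, Tsc22d3, Klf2 and Mycl are described first, an order set after the calls were seen. Hif3a (chr7:17031507-17062427 in mm10, minus strand), a HIF alpha subunit with isoforms that restrain HIF1 activity, was at 9.34, 10.4, 6.04, 17.1 and 2.69 CPM in TRAP and 0.334, 0, 0.259 and 0.234 CPM in 5xFAD TRAP. It was close to absent in 5xFAD TRAP, with 3 counts in all 4 libraries against 355 in the 5 of TRAP, a ratio of TRAP to 5xFAD TRAP of 41.6 with a 95% counting interval of 14.1 to 202.7 that covers counting error only. The fitted log2 fold change was -5.51 ± 1.07 SE (adjusted p = 0.006684). For Hif3a, the call held with any 1 of the 9 libraries left out (highest adjusted p = 0.03991) and was lost by limma-voom (adjusted p = 0.1292). Of the 13 called lower, limma-voom did not call 9, and the other 8, with adjusted p, were Asic2 (0.3089), Adgrv1 (0.1423), Gm17231 (0.1402), Klf2 (0.1344), Mycl (0.1228), Mapk4 (0.113), Ddit4 (0.09706) and Plet1os (0.08503). Within batch 1 it was -5.87 and within batch 2 -3.29.

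Ddit4 (chr10:59949669-59951834, minus strand), also called REDD1, an inhibitor of the growth kinase complex mTORC1, was at 48.2, 67.5, 251, 46.4 and 85.96 CPM in TRAP and 12.3, 5.48, 27.7 and 27.1 CPM in 5xFAD TRAP. TRAP replicate 3 stood far above the rest, and even the lowest TRAP library was above all 5xFAD TRAP libraries. The log2 fold change was -3.05 ± 0.63 SE (adjusted p = 0.01039). For Ddit4, the call was lost without 5xFAD TRAP replicate 2 (adjusted p = 0.07812). In the fit to the 9 libraries alone its adjusted p was 0.1346. Tsc22d3, or GILZ, a leucine zipper protein induced by glucocorticoids, lies on the X chromosome and was added to the named genes after its values were seen. It was at 428, 695, 763, 403 and 506 CPM in TRAP and 144, 112, 215 and 288 CPM in 5xFAD TRAP, without overlap (-1.83 ± 0.38 SE, adjusted p = 0.01071). For Tsc22d3, the call was lost in 2 of the 9 fits that left out 1 library (highest adjusted p = 0.108, without 5xFAD TRAP replicate 2).

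Klf2 (chr8:72319033-72321656, plus strand), a Kruppel-like factor that keeps macrophages and endothelium quiescent, was at 21.02, 51.1, 14.2, 16.8 and 20.6 CPM in TRAP and 4.67, 4.93, 12.9 and 11.2 CPM in 5xFAD TRAP. TRAP replicate 2 was far above the other TRAP libraries, the groups did not overlap, and the log2 fold change was -2.004 ± 0.48 SE (adjusted p = 0.03656). For Klf2, the call was lost in 5 of the 9 fits that left out 1 library (highest adjusted p = 0.2208, without 5xFAD TRAP replicate 2) and held without TRAP replicates 1, 4 and 5 and 5xFAD TRAP replicate 3. It was the 1 call among 16 Kruppel-like and EGR factors, where 0.0809% of all genes were called lower. A negative value was found for 13 of the 16, and the median was -0.33, against -0.06 for all genes tested. Klf9, induced by glucocorticoid and thyroid hormone, was at 144, 103, 50.8, 90.5 and 109.6 CPM in TRAP and 49.7, 37.3, 32.1 and 80.6 CPM in 5xFAD TRAP with overlap; its fold change of -1.25 ± 0.33 SE missed the threshold (adjusted p = 0.07254) and was called in the fit to the 9 libraries alone (adjusted p = 0.0003922). Mycl (chr4:122995652-123002485, plus strand), the L-Myc transcription factor, was at 67.4, 82.9, 98.2, 42.4 and 47.1 CPM in TRAP and 22.7, 16.98, 15.8 and 28.5 CPM in 5xFAD TRAP (-1.94 ± 0.46 SE, adjusted p = 0.037). For Mycl, the call was lost in 6 of the 9 fits that left out 1 library (highest adjusted p = 0.1909, without 5xFAD TRAP replicate 2) and held without TRAP replicates 1, 4 and 5.

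**Figure D4:**
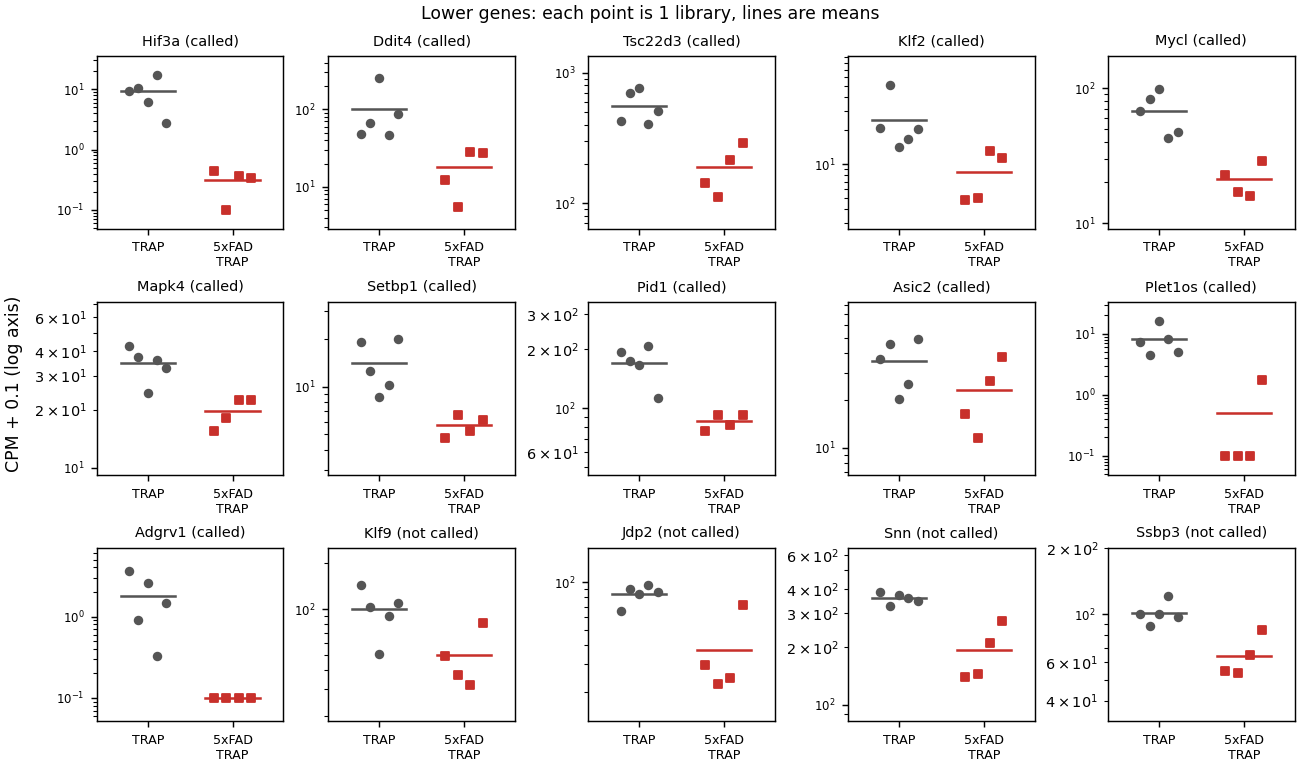
CPM plus 0.1 on a log axis for 15 genes that were lower in 5xFAD TRAP; circles are the 5 TRAP libraries, squares the 4 5xFAD TRAP libraries, and lines their means. Hif3a and Adgrv1 drop to or near 0 counts, and Pid1 and Mapk4 fall by about 1 log2 unit without overlap. The rightmost square, 5xFAD TRAP replicate 4, lies among the TRAP libraries for Asic2, Klf9 and Jdp2, and replicate 3 does so for Asic2.

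The other called lower genes include a kinase, adaptors and membrane proteins. Mapk4, the atypical MAP kinase ERK4, fell from 42.6, 37.1, 24.2, 35.98 and 32.9 CPM to 15.3, 18.1, 22.3 and 22.2 CPM (-1.03 ± 0.23 SE, adjusted p = 0.01807). For Mapk4, the call was lost without each of 5xFAD TRAP replicates 1, 2 and 4 (highest adjusted p = 0.1108, without 5xFAD TRAP replicate 1). Setbp1, which binds the nuclear protein SET, fell from 8.53 to 19.8 CPM to 4.67 to 6.58 CPM (-1.81 ± 0.38 SE, adjusted p = 0.01087). For Setbp1, the call was lost without each of 5xFAD TRAP replicates 3 and 4 (highest adjusted p = 0.07308, without 5xFAD TRAP replicate 3). Pid1, a phosphotyrosine-binding adaptor that interacts with lipoprotein receptor family members, fell from 193, 173, 165, 206 and 112 CPM to 76.8, 92.05, 82.4 and 92.5 CPM (-0.97 ± 0.22 SE, adjusted p = 0.02915). For Pid1, the call was lost in 7 of the 9 fits that left out 1 library (highest adjusted p = 0.1798, without 5xFAD TRAP replicate 1) and held without TRAP replicates 1 and 5. Asic2, an acid-sensing sodium channel best known from neurons, was at 36.5, 45.7, 20.4, 25.2 and 48.7 CPM in TRAP and 16.4, 11.5, 26.4 and 37.8 CPM in 5xFAD TRAP, the 1 called lower gene with overlap (-1.002 ± 0.25 SE, adjusted p = 0.04594). For Asic2, the call was lost in 7 of the 9 fits that left out 1 library (highest adjusted p = 0.2928, without 5xFAD TRAP replicate 2) and held without TRAP replicate 4 and 5xFAD TRAP replicate 3.

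Adgrv1, a very large adhesion G protein-coupled receptor, had 53 counts in TRAP, where the libraries ran from 0.232 to 3.503 CPM, and 0 in all 4 libraries of 5xFAD TRAP. Against a floor of 3 counts over the group, TRAP was at least 6.21-fold higher (adjusted p = 0.03575). For Adgrv1, the call was lost in 6 of the 9 fits that left out 1 library (highest adjusted p = 0.1564, without 5xFAD TRAP replicate 4) and held without TRAP replicates 2, 4 and 5. Plet1os, an antisense gene whose reads cannot be told from those of its partner because the strand setting of the counting is not given in the sources used here, was at 4.39 to 15.9 CPM in TRAP and 0, 0, 0 and 1.64 CPM in 5xFAD TRAP (-6.57 ± 1.53 SE, adjusted p = 0.03138). For Plet1os, the call was lost without each of 5xFAD TRAP replicates 1, 2 and 3 (highest adjusted p = 0.1453, without 5xFAD TRAP replicate 2) and in the fit to the 9 libraries alone (adjusted p = 0.05569). The other 2 of the 13 are unnamed gene models, Gm42644 and Gm17231, named here after their values were seen.

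The list of 21 glucocorticoid-induced genes had 2 called lower, Ddit4 and Tsc22d3 (0.0809% of all genes), and none higher. A negative value was found for 16 of the 21, and the median was -0.74, against -0.06 for all genes tested. Besides these, Fkbp5, which tunes the glucocorticoid receptor, was at 404, 342, 539, 309.5 and 200.2 CPM in TRAP and 196, 215, 154 and 348 CPM in 5xFAD TRAP with overlap (-0.74 ± 0.35 SE, adjusted p = 0.4749). Cebpd had 125.8, 131, 139.8, 116 and 123 CPM in TRAP and 68.8, 65.2, 70.7 and 104 CPM in 5xFAD TRAP, without overlap. The fit to the 9 libraries alone called 5 of the 21 lower (Tsc22d3, Klf9, Dusp1, Nfkbia and Cebpd) and none higher. That fit called 2.26% of all genes it tested lower. Calls in it were not particular to this list, since 6 of the 28 MAP kinase and cytokine brakes were called lower and 3 higher. Nr3c1, the glucocorticoid receptor itself, overlapped at 179.8 to 301 and 189.6 to 269.6 CPM (0.07 ± 0.17 SE, adjusted p = 0.9411).

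Markers of border macrophages, which line vessels and meninges and can carry the tag, were lower in value beside these genes. All 9 of the 9 tested had a negative value, none was called, and their median was -1.12, against -0.06 for all genes tested. The list made up 0.0434% ± 0.0166 of the TRAP counts (SD, n = 5) against 0.0234% ± 0.00132 of the 5xFAD TRAP counts (n = 4). The exact two-sided permutation test gave p = 0.07937 (adjusted p = 0.2646 over 10 lists). TRAP replicate 2, the library that stands apart in Cx3cr1, had a share of 0.0181%. It was below all 5xFAD TRAP libraries in that share, and it had the highest Klf2 value of all 9 libraries and Hif3a, Ddit4 and Tsc22d3 values above every 5xFAD TRAP library (51.1, 10.4, 67.5 and 695.2 CPM). The part of border macrophage RNA in the falls was not tested.

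After the called genes, 14 lower genes with the next smallest p were read as values, none of them past the threshold. Celf3, an RNA-binding splicing regulator, was closest at 4.89 to 12.3 and 1.001 to 6.99 CPM (-1.63 ± 0.41 SE, adjusted p = 0.05017). Ssbp3, a cofactor of LIM-domain transcription factors, had 99.6, 88.3, 100.4, 120.3 and 96.3 CPM in TRAP and 54.7, 53.7, 64.5 and 84.1 CPM in 5xFAD TRAP without overlap (-0.73 ± 0.18 SE, adjusted p = 0.05017). Snn, stannin, a small membrane protein, was the most abundant, at 386, 326, 369.8, 359 and 346 CPM in TRAP and 139, 145, 210.3 and 274 CPM in 5xFAD TRAP, also without overlap (-1.11 ± 0.29 SE, adjusted p = 0.06726). Pde4d, a phosphodiesterase that degrades cAMP, had 8.74 to 18.2 and 1.64 to 10.6 CPM (-2.07 ± 0.53 SE, adjusted p = 0.0667). Others were Ccnjl (-2.02), Tmeff1 (-0.85), Akap8l (-0.95), Apobec2 (-2.76), Cyp39a1 (-3.08), Hormad2 (-5.66), Ube2l3 (-4.65) and mt-Rnr1 (-1.88), besides Jdp2 and Klf9. For mt-Rnr1, the mitochondrial 12S ribosomal RNA, the order followed the batch, with 4.34, 6.03, 35.2 and 49.3 CPM in 5xFAD TRAP replicates 1 to 4 and log2 values of -2.47 within batch 1 and -0.10 within batch 2. Hormad2 rested on 135 counts in TRAP and 2 in 5xFAD TRAP, and Ube2l3 on 39 and 2.

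Several of the genes called lower are long. The median span from first to last base in GENCODE M21 was 58.8 kb over the 12 called lower with a position, 21.3 kb over the 114 called higher and 25.1 kb over all 15551 tested genes with a position. Spans over 100 kb were found for 5 of the 12 (Adgrv1, Asic2, Mapk4, Pid1 and Setbp1), for 14 of the 114 and for 16.17% of all. The part of span in the calls was not tested.

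The other 5xFAD comparisons in the series share no library with this one, and their values for the same genes were set beside it. Mice with the Eif2A allele, whose eIF2α cannot be phosphorylated, had neither VEGF nor ASV. There 334 genes were called higher (2.08%) and 165 lower (1.03%) in 5xFAD Eif2A (n = 3) against Eif2A (n = 4). All 114 genes called higher with the plain tag had a positive value there, and 12 of the 13 called lower had a negative one, 4 of which were called (Asic2, Mapk4, Mycl and Pid1). The share of all tested genes with each sign in that comparison was not counted. Hif3a was at -3.08 ± 0.89 SE there (adjusted p = 0.05238), Ddit4 at -1.61 ± 0.63 SE (0.1871), Tsc22d3 at -1.06 ± 0.40 SE (0.1684) and Klf2 at -0.63 ± 0.49 SE (0.6251). The difference between these 5xFAD effects was tested gene by gene. It was called for 1 gene, the unnamed model Gm26561, and for none of the 127, with 686 genes at an unadjusted p under 0.05, so the falls were not shown to differ between the backgrounds. Both effects came from the same model of all 29 libraries.

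Flt1 was at 2.64 ± 0.68 SE in the Eif2A background (adjusted p = 0.02563) and at -1.56 ± 0.62 SE in 5xFAD iPKR against iPKR ASV (adjusted p = 0.2353), where both groups had VEGF and ASV. The iPKR groups are of another genotype than the plain-tag groups, so that contrast differs from the main comparison in more than the agents. Adding ASV to VEGF in iPKR mice gave Flt1 1.74 ± 0.57 SE (adjusted p = 0.1509). Nrp1 was higher in all 3 5xFAD comparisons, at 1.78 ± 0.25 SE in Eif2A (adjusted p = 7.108e-05) and 0.92 ± 0.23 SE in iPKR (adjusted p = 0.03247). Of the 4 ligands, 3 were also called in iPKR: Spp1 at 4.10 ± 0.60 SE (adjusted p = 0.0001504), Grn at 2.11 ± 0.21 SE (adjusted p = 1.356e-06) and Csf1 at 1.88 ± 0.48 SE (adjusted p = 0.03934). Igf1 was at 1.17 ± 0.55 SE (adjusted p = 0.3532). Over the called genes, 105 of 114 and 11 of 13 kept their sign in the iPKR comparison, and 2 of the 127 were called in iPKR ASV against iPKR vehicle. Lgals3bp is one of these 2, at 1.51 ± 0.33 SE (adjusted p = 0.04273). Shares of all tested genes called, or with each sign, were not counted for the iPKR contrasts. The iPKR counts are therefore descriptions without a background to set them against.

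**Figure D5:**
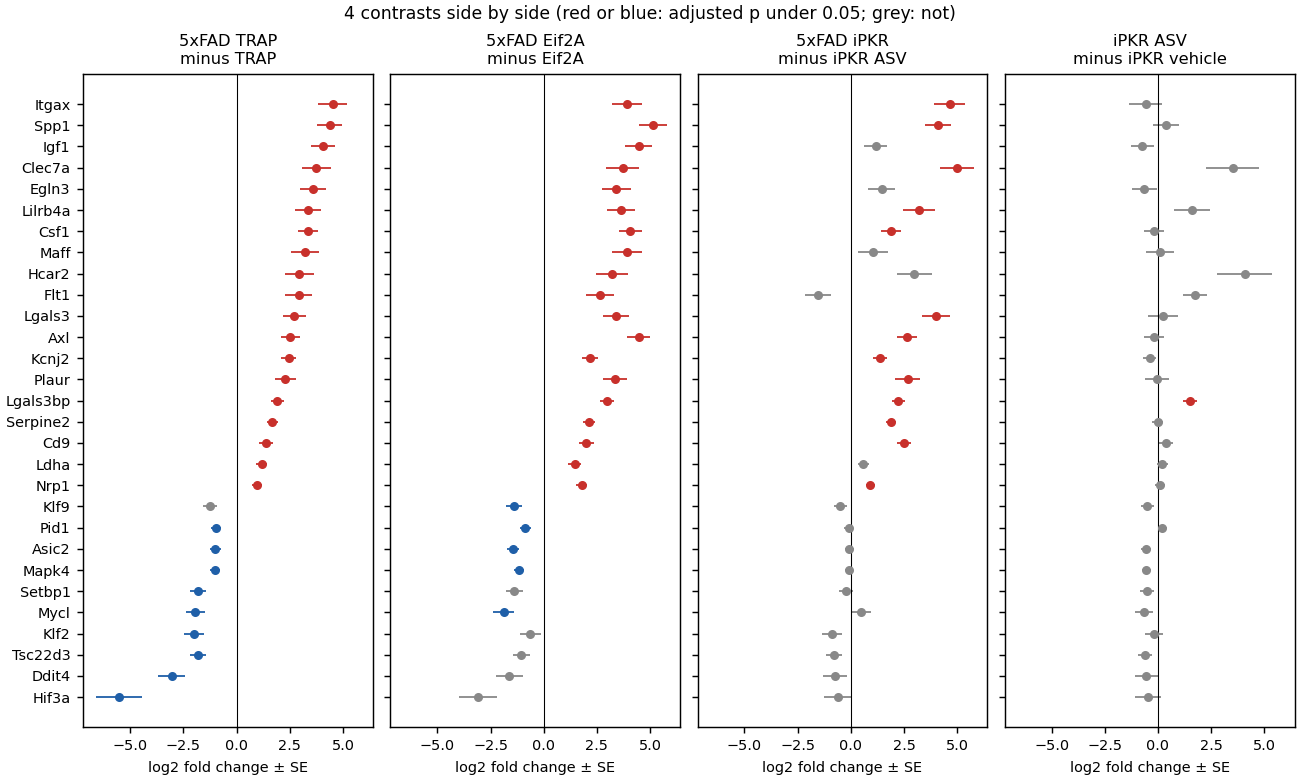
Log2 fold change with SE for 29 genes in 4 contrasts of the same fit: 5xFAD TRAP minus TRAP, 5xFAD Eif2A minus Eif2A, 5xFAD iPKR minus iPKR ASV, and iPKR ASV minus iPKR vehicle. Red and blue points passed an adjusted p of 0.05. The lower genes other than Klf9 are blue in the first panel and in part blue in the second. Klf9, not called in the first comparison, is grey in the first panel and blue in the second. The lower genes are grey in the last 2 panels, and Flt1 lies below 0 in the third.

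The 4 mice of 5xFAD TRAP were not alike in the size of these changes. Among the 114 genes called higher, 5xFAD TRAP replicate 2 had the highest of the 4 values in 74 and replicate 4 the lowest in 88. Lpl, lipoprotein lipase, was at 349.7, 561, 267 and 128 CPM in replicates 1 to 4 against 5.92 to 14.4 CPM in TRAP, and Fabp5, a fatty acid binding protein, at 182, 121, 142 and 89.2 CPM against 8.95 to 19.8 CPM. Replicate 4 also had the highest of the 4 values in 6 of the 13 called lower. Replicate 2 was the least deeply sequenced, at 2.052 M counts, and replicate 4 the most, at 4.903 M. Replicates 1 and 2 belong to batch 1 and had the higher neuron marker shares, and replicates 3 and 4 belong to batch 2. The part of batch, depth or neuronal RNA in this order was not tested.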

How the data were processed

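PolyA RNA on GFP-tagged ribosomes was sequenced from mouse cortex. The submitters' processing notes name Trim Galore, HISAT2 2.2.1, featureCounts 2.0.3 and the mm10 build. The annotation, strandedness and treatment of multiple matches are not given in the sources used here. The authors deposited raw counts for 22327 gene symbols. Their deposited RPKM table was not used. Reads had no molecular identifiers, so counting intervals cover counting error only.

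Genes were kept with filterByExpr (minimum count 10, total 15), leaving 16074. TMM-scaled counts of all 29 libraries were fitted in R 4.3.3 with edgeR 4.0.16 by group, batch and labelled sex (20 residual degrees of freedom), and tested with the robust two-sided quasi-likelihood F-test, Benjamini-Hochberg threshold 0.05. Labelled sex went against Y-linked reads in none of the 9 libraries compared and in 8 of the other 20. These 8 entered the fit as labelled. With sex from Y-linked reads, 89 of the 127 called genes were still called. Those lost by the same edgeR test included, with adjusted p, Asic2 (0.3527), Plet1os (0.167), Adgrv1 (0.1478), Klf2 (0.1146), Mycl (0.09974) and Pid1 (0.05612). Higher genes lost included Grn (0.1194), Ldha (0.1015), Cd63 (0.09565), Thy1 (0.07847) and Cd9 (0.07262). Pairs of libraries within TRAP and within 5xFAD TRAP were checked for copies, and none was found. The closest pair was 5xFAD TRAP replicates 1 and 2, with a chi-square per degree of freedom of 4.223, against 7.808 to 32.35 for the others. Pairs across groups and the other 20 libraries were not compared. The procedure was tested on simulated data. It called 9 of 50 genes with a true 2-fold rise and 31 of 50 with a 4-fold rise. For true falls it called 5 of 50 at 0.5-fold and 25 of 50 at 0.25-fold, and 5 calls were false. A gene that was not called is therefore not shown to be unchanged.

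The comparison, its gene lists and the naming rule were chosen with earlier results of these data known. The rule left out unnamed gene models and sex-chromosome genes. It took all genes called lower and the next lower genes up to 24, the 16 higher genes of smallest p (log2 fold change at least 0.5, mean log2 CPM at least 1), up to 4 called members of each list or else the first members by p, and the transgene and VEGF receptor genes. A few genes named by the rule are not reported here. Gla, Tsc22d3, Fkbp5, Nr3c1, Vegfa, Gas6, Csf1r and the lysosomal genes with promoter windows were added after their values were seen. Promoter motifs were also chosen after calls were known. Coordinates are from GENCODE M21, in which 21405 symbols were found once.

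Alternatives were RLE and upper-quartile factors, no or a stricter count filter, fits without sex or batch, sex from Y-linked reads, batch 1 alone, only the groups compared, the 4 groups without iPKR, a replicate block, limma-voom (limma 3.58.1), DESeq2 1.42.0 and each library left out. Batch 2 alone and the 2 groups without batch and sex were added after seeing the data.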

Additional observations from a re-analysis of the deposited data

Results flagged for a closer look

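A single library lay far from the others of its group by Dixon's test in 18 of 210 groups of values tested (95 named genes and 10 marker shares in 2 groups, CPM or percent of counts). Chance alone flags about 1 in 20 groups.

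Most of the values that stood apart were in TRAP. TRAP replicate 2, the library with little Cx3cr1, was alone at the high end for Clec7a (75.95 CPM), Hcar2 (15.97 CPM) and Klf2 (51.1 CPM), and alone at the low end for Csf1 (1.996 CPM). TRAP replicate 5, the 1 TRAP library of batch 2, was alone at the high end for Ank (127.7 CPM), Azin2 (25.77 CPM), Dusp1 (49.43 CPM) and Ube2l3 (2.885 CPM). TRAP replicate 3 stood apart for the mTORC1 inhibitor Ddit4 (251 CPM) and for Pcna (62.13 CPM), and TRAP replicate 1 for Flt1 (2.92 CPM). The Flt1, Clec7a, Hcar2, Ank and Csf1 values all lay below the lowest 5xFAD TRAP library, and the Ddit4 and Klf2 values above the highest.

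In 5xFAD TRAP, replicate 4 stood apart at the high end for the lower genes Jdp2 (71.94 CPM), Plet1os (1.635 CPM), Cebpd (103.9 CPM) and Ube2l3 (0.4671 CPM). Replicate 2 stood apart for the channel Kcnj2 (123.3 CPM) and had the lowest share of oligodendrocyte markers (0.05327% of counts). Replicate 3 held the 1 count of Flt4 (0.259 CPM).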

How the results depend on the processing

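All 127 called genes kept their sign in batch 1 alone and in batch 2 alone, which is not independent, since the same libraries selected them. Of the 127, 44 (42 higher, 2 lower, Hif3a and Gm42644) kept their call with any 1 library left out. The number called differed between fits: only the 2 groups compared gave 749 (472 higher, 277 lower), the same without batch and sex 301 (255 and 46), and the 4 groups without iPKR 958 (566 and 392, 59.08% higher). DESeq2 called 345 (217 and 128, 62.9% higher). Batch 2 only, with 1 TRAP library assumed to vary like the other groups, called 4 (4 and 0). The replicate block gave 76 (68 and 8); the numbers do not pair the mice, since same-numbered libraries deviated with correlations of 0.016, -0.011, 0.022 and 0.0004. Lower calls alone moved further: 20 with RLE size factors, 20 with upper-quartile factors, 6 without sex, 3 without batch, 6 with sex from Y-linked reads, 22 in batch 1 only and 5 by limma-voom. The cause was not tested. With 1 library left out, totals ran from 53 to 122, higher calls from 50 to 110, lower calls from 3 to 20 (20 without TRAP replicate 5; 8, 3 and 5 without 5xFAD TRAP replicates 3, 2 and 1), and genes without overlap from 1016 to 1500 against 860, where fewer libraries overlap less by construction.

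Over the 95 named genes, 2252 values under an alternative were compared with the reported ones: 1855 kept direction and side of the threshold, 247 lost the threshold, 147 gained it and 3 changed sign, none of them a called gene. The sign changes were Alas1 (-0.01566) and Bhlhe40 (-0.1005) in batch 2 only and Flt4 (from -0.3517 to 2.338 with 1 library left out). Differences in marker shares, in percentage points of counts, also changed sign with 1 library left out: endothelial from -0.0004738 to 0.000464, oligodendrocyte precursor from -0.0002004 to 0.001296 and lymphocyte from -0.0002434 to 8.123e-06. Depth limits genes of a few CPM or less, which have 0 to a few counts in 5xFAD TRAP libraries of 2.052 to 4.903 M.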

Other observations

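Genes that build, modify or degrade sulfated glycosaminoglycans, the sugar chains of proteoglycans, were found among the genes called higher. They belong to none of the lists and were picked after their values were seen, so their number is a description. Hpse, heparanase, which cuts heparan sulfate, was at 0.584, 0.998, 0.624, 0.116 and 1.73 CPM in TRAP and 15.7, 22.5, 13.2 and 10.5 CPM in 5xFAD TRAP (4.45 ± 0.83 SE, adjusted p = 0.004445, edgeR). For Hpse, the call held with any 1 of the 9 libraries left out (highest adjusted p = 0.02634). Sulf2, which removes sulfate groups from heparan sulfate outside the cell, rose from 13.4 to 24.96 to 33.4 to 51.7 CPM (1.42 ± 0.32 SE, adjusted p = 0.0253). For Sulf2, the call was lost in 6 of the 9 fits that left out 1 library (highest adjusted p = 0.1566, without TRAP replicate 1). The sulfotransferases Chst2, Chst10 and Chst11 rose by 1.41 ± 0.29 SE, 1.14 ± 0.23 SE and 1.20 ± 0.29 SE, and their calls were lost in 2, 2 and 8 of the 9 fits that left out 1 library (highest adjusted p = 0.113, 0.0774 and 0.3374). Sdc3, the heparan sulfate proteoglycan syndecan-3, rose from 28.6, 65.9, 40.8, 33.1 and 43.5 CPM to 74.4, 102, 104 and 146 CPM (1.31 ± 0.27 SE, adjusted p = 0.01017). For Sdc3, the call was lost in 2 of the 9 fits that left out 1 library (highest adjusted p = 0.06037, without 5xFAD TRAP replicate 2). In contrast, Ext1, which polymerises heparan sulfate, had 29.9 ± 9.75 CPM (SD, n = 5) and 32.3 ± 7.001 CPM (n = 4) and was not called (-0.04 ± 0.34 SE, adjusted p = 0.9921). All 6 called genes were also called in 5xFAD Eif2A against Eif2A, at log2 values of 1.36 (Chst11) to 3.56 (Hpse).

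Several receptors and a channel outside the lists were called higher too, again read after their values were seen. Cd72, an inhibitory lectin-like receptor best known from B cells, was at 1.46, 6.19, 2.71, 4.99 and 6.54 CPM in TRAP and 34.4, 56.98, 49.7 and 49.8 CPM in 5xFAD TRAP (3.35 ± 0.54 SE, adjusted p = 0.0007833, edgeR). For Cd72, the call held with any 1 of the 9 libraries left out (highest adjusted p = 0.007973). Pdcd1, the checkpoint receptor PD-1, was at 4.09, 7.79, 5.31, 4.64 and 7.69 CPM in TRAP and 52.1, 92.6, 33.2 and 35.7 CPM in 5xFAD TRAP (3.12 ± 0.65 SE, adjusted p = 0.01071). For Pdcd1, the call was lost in 2 of the 9 fits that left out 1 library (highest adjusted p = 0.1453, without 5xFAD TRAP replicate 2). Lymphocyte markers took 0.00113% of counts or less in all 9 libraries. The part of lymphocyte RNA in the Cd72 and Pdcd1 changes was not tested. Ramp1, a subunit of the receptor for calcitonin gene-related peptide, rose from 36.8 to 67.2 to 134 to 177 CPM (1.43 ± 0.29 SE, adjusted p = 0.01017). For Ramp1, the call was lost in 2 of the 9 fits that left out 1 library (highest adjusted p = 0.0916, without 5xFAD TRAP replicate 1). Trpm1, a cation channel known from retina and melanocytes, was at 0, 1.098, 0.416, 1.16 and 0.577 CPM in TRAP and 30.4, 23.01, 15.3 and 14.5 CPM in 5xFAD TRAP (4.52 ± 0.90 SE, adjusted p = 0.007485). For Trpm1, the call was lost in 1 of the 9 fits that left out 1 library (highest adjusted p = 0.0566, without 5xFAD TRAP replicate 1).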
